A study of Mus musculus with 32 samples.

Results

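The genes described here are 10 genes of DNA damage signalling, Mdc1, H2afx, Atr, Atm, Topbp1, Brca1, Rnf8, Chek1, Chek2 and Hus1b, out of 85539 genes in the deposited expression tables. They were taken by symbol and matched to gene identifiers with the GENCODE mouse annotation. All 10 passed the level at which a gene was called expressed, a TPM (a transcript abundance scaled to the same total in every sample) of 3 or more in at least 1 juvenile mouse, and none was lost to this filter.

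DNA damage signalling starts when the kinases ATM and ATR are activated at broken or single-stranded DNA and phosphorylate the histone variant H2AX. MDC1 binds the phosphorylated histone, called gammaH2AX, and recruits the ubiquitin ligase RNF8, while TOPBP1, BRCA1 and the 9-1-1 clamp act on the ATR side and the kinases CHK1 and CHK2 carry the signal to the cell cycle. In male meiosis the pathway is used without external damage. ATM phosphorylates H2AX after the programmed breaks of leptonema, and in pachynema ATR, with BRCA1, TOPBP1 and MDC1, marks the unsynapsed X and Y chromosomes, which are silenced.

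Germ cells were isolated from testes of individual C57BL/6J males, with 3 mice of 8 days post-partum (dpp) and 5 mice for every later age, which were 10, 12, 14, 16 and 18 dpp, and each mouse was 1 sample. The study sampled 5 mice at 8 dpp too, and omitted those whose cytology and RNA matched the other mice of that age poorly. No mutation or treatment is given for any mouse. At these ages the first wave of spermatogenesis brings successively later substages into the testis, so age stands for a changing mixture of germ cells and remaining somatic cells and not for a pure substage. Cells enriched for pachytene and diplotene spermatocytes by sedimentation of adult testis cells, 4 samples each pooled from 6 C57BL/6J mice of 9 weeks, were deposited in a separate table, and their levels are set beside the others without a test. Only polyadenylated RNA was sequenced.

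The mixture was checked with marker genes. The summed level of 6 late pachytene and diplotene markers was 4.01 to 7.22 TPM in the mice of 8 dpp, 677 to 1540.5 TPM at 16 dpp, 1960.3 to 3972 TPM at 18 dpp and 8975 to 9413 TPM in the adult samples, and one of them, Hist1h1t, the testis linker histone, was at or below 0.91 TPM in every mouse of 18 dpp. Sertoli cells, the somatic cells of the tubule, remained: 8 of their markers summed to 6904 to 7778 TPM at 8 dpp, 3259 to 4244 TPM at 18 dpp and 294 to 435 TPM in the adult samples. Spermatogonial markers fell over the same ages, from 1013 to 1138 TPM to between 454 and 655 TPM, and round spermatid markers summed to no more than 17.0 TPM at 18 dpp and to 872 to 1189 TPM in the adult samples. From 8 to 18 dpp all 6 spermatogonial markers and 7 of 8 Sertoli markers fell and all 6 early prophase markers rose (limma), as did 4 of 5 macrophage and 3 of 6 Leydig markers, which summed to no more than 87.5 and 472 TPM in any mouse. Peritubular markers summed to 1051 to 1160 TPM at 8 dpp, 524 to 1034 TPM at 18 dpp and 5.57 to 10.7 TPM in the adult samples. Of these 5 markers 1 fell from 8 to 18 dpp (limma). Red blood cell markers summed to 243 to 681 TPM at 8 dpp. Fewer cells of a type and less RNA per cell cannot be told apart from these RNA levels alone. The study also scored germ-cell substages by cytology in each mouse, and those counts were not used here. It reported that germ cells were the large majority of stained cells in every sample, which is a share of cells and not of RNA.

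The libraries of 8, 10 and 12 dpp and those of 14, 16 and 18 dpp reused the same barcodes and were therefore not all in 1 pool, which cannot be told apart from age between 12 and 14 dpp. Mice 4 and 5 of 18 dpp stood apart from mice 1 to 3 of that age, with late pachytene and diplotene markers at 2055 and 1960.3 TPM against 3795 to 3972 TPM. The part of the pools in the results was not tested. Mice 1 to 3 and mice of higher number were compared within ages, over all ages together. At an adjusted p under 0.05, 3.23% of genes differed and no member did (lowest 0.0855, Chek2, limma). That term was then added to the model of ages. From 8 to 18 dpp Chek1 (log2 fold change -0.28, adjusted p = 0.0493, limma) and Chek2 (-0.36, 0.0119) then passed. Hus1b did not (0.47, adjusted p = 0.0740, limma).

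Of the 10 genes, 5 lie on chromosome 9 of GRCm38: H2afx (from 44334694 to 44336077), Atr (from 95857597 to 95951781), Atm (from 53439149 to 53536740), Topbp1 (from 103305215 to 103350428) and Chek1 (from 36708482 to 36727065). Mdc1 (from 35841515 to 35859670) and Rnf8 (from 29614790 to 29644991) lie on chromosome 17, Brca1 (from 101488764 to 101551955) on chromosome 11, Chek2 (from 110839979 to 110874145) on chromosome 5 and Hus1b (from 30946573 to 30947759) on chromosome 13. None is on the X or Y chromosome. Hus1b is a gene of 1 exon inside Exoc2 on the same strand, Rnf8 overlaps Gm28052 and Gm28043 on the same strand, and Atr overlaps the antisense genes 1700065D16Rik and Gm16794. The sources do not state that the libraries kept the strand, so reads of Atr and its antisense genes could have been shared. For Hus1b and Rnf8, whose overlapping genes are on the same strand, keeping the strand would not separate reads of a shared stretch.

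H2afx also has 1 exon, and its last codons encode the tail that gives gammaH2AX its name. The end of its coding sequence (GRCm38, plus strand, chr9:44335149-44335193) is shown because it holds the serine that ATM and ATR phosphorylate, whose codon is in capitals, followed by glutamine, glutamate, tyrosine and the stop codon.
H2afx: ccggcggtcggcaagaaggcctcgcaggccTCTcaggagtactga

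The start sites of 4 of the 10 genes, Atm, Brca1, Topbp1 and Chek2, lie within 1000 bases of the start of a protein-coding gene on the other strand, an arrangement found in 10.1% of the 13660 protein-coding genes tested. The stretches upstream of Mdc1, the gene with the largest rise, of Atm and Brca1, the genes that fell, and of Chek2 are shown from RefSeq on GRCm38.p6, 5′ to 3′ on the strand of the gene and without annotated exons. Those of Atm, Brca1 and Chek2 lie between the starts of the gene and its neighbour. They are at chr17:35841248-35841497 (plus strand), chr9:53536741-53536921 (minus), chr11:101551956-101552148 (minus) and chr5:110839778-110839978 (plus). Capitals mark matches, on either strand, to the CCAAT box (CCAAT), the GC box (GGGCGG) and an E2F motif (TTTCCCGC), which were searched separately so that matches may overlap.
Mdc1: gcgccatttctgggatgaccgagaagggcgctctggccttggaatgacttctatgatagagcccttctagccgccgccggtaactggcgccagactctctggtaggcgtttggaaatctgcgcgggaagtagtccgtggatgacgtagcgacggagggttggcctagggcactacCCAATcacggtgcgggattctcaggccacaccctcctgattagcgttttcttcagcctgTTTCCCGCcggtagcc
Atm: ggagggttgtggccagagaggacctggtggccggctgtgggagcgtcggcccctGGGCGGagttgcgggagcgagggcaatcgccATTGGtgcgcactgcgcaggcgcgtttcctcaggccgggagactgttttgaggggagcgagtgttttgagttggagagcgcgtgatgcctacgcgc
Brca1: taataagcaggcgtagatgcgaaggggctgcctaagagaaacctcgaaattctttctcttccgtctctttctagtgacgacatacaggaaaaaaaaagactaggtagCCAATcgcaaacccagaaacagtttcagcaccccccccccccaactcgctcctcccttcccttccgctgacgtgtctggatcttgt
Chek2: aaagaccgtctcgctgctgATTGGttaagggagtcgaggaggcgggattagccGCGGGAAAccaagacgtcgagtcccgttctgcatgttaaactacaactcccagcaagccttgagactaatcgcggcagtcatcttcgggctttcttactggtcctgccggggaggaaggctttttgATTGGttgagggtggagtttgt

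In the 250 bases before the start, a CCAAT box was found at 5 members (Mdc1, Atm, Brca1, Rnf8 and Chek2) and in 33.8% of the 32851 promoters of the table. The GC box was found at 4 members (Atm, Atr, Rnf8 and Topbp1) and in 32.7% of promoters. The E2F motif was found at Mdc1 and Chek2 and in 0.895% of promoters. These are matches of letters only, in the 9 members of the table, and a promoter of H2afx was not analysed here. The search covered the 250 bases with annotated exons kept, unlike the stretches shown. For Rnf8 the stretch without exons was 18 bases and held no match, and for Atr there was no such stretch.

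Atr, the kinase that responds to single-stranded DNA and acts on the unsynapsed sex chromosomes, rose through the first wave. Its levels were 57.5, 41.4 and 54.8 TPM in the 3 mice of 8 dpp and 50.8, 51.1, 51.3, 46.4 and 47.9 TPM in the 5 mice of 10 dpp. They were 60.8, 83.4, 88.8, 80.2 and 74.99 TPM at 12 dpp, 82.5, 67.3, 86.2, 93.6 and 93.6 TPM at 14 dpp and 149, 112, 103, 90.8 and 113 TPM at 16 dpp. At 18 dpp they reached 188, 172, 165, 140.2 and 144 TPM, every mouse lying above every mouse of 8, 10, 12 and 14 dpp. The log2 fold change from 8 to 18 dpp was 1.65 ± 0.136 (SE, adjusted p = 3.48e-11), from limma on log2(TPM + 1) with all ages in 1 model and Benjamini-Hochberg adjustment over 20368 genes. The adult samples were higher again, at 220.0, 212, 231 and 210.0 TPM.

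Atm, the kinase activated by double-strand breaks, went the other way. Its levels were 25.6, 21.03 and 23.5 TPM at 8 dpp, 22.2, 21.4, 21.2, 20.5 and 19.6 TPM at 10 dpp and 14.99, 20.7, 21.6, 19.6 and 18.4 TPM at 12 dpp. They were 20.9, 18.7, 20.8, 25.1 and 23.6 TPM at 14 dpp, 16.7, 15.7, 16.4, 16.3 and 16.3 TPM at 16 dpp and 15.4, 11.2, 10.3, 13.2 and 14.3 TPM at 18 dpp. The mice of 18 dpp all lay below those of 8 dpp, and the log2 fold change was -0.82 ± 0.113 (SE, adjusted p = 3.69e-07). In the adult samples Atm was at 1.39, 0.89, 2 and 1.05 TPM, a mean 9.66-fold below that of 18 dpp.

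The ratio of the kinases therefore moved over a wide range. The log2 ratio of Atm to Atr, with 1 TPM added to each, averaged -1.09 ± 0.129 in the 3 mice of 8 dpp (SD) and -3.56 ± 0.285 in the 5 mice of 18 dpp (SD), and it was -1.97 ± 0.0166 at 12 dpp and -6.58 ± 0.233 in the 4 adult samples. In the adult samples Atm, at 0.89 to 2 TPM, was close to the 1 TPM added. At 12 dpp the 5 mice lay between -1.99 and -1.95, although Atr alone ran from 60.8 to 88.8 TPM and Atm from 14.99 to 21.6 TPM. The difference between 18 and 8 dpp was -2.47 (two-sided exact permutation test, p = 0.0357, the smallest that 56 arrangements of 3 and 5 mice allow, adjusted p = 0.0476 over 4 ratios).

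Mdc1, the mediator that binds gammaH2AX and spreads it over the sex chromosomes, had the largest rise of the 10 genes. Its levels were 49.4, 33.9 and 44.6 TPM at 8 dpp, 44.6, 47.5, 45.02, 39.7 and 37.3 TPM at 10 dpp and 49.3, 64.8, 86.7, 72.2 and 78.4 TPM at 12 dpp. They were 82.7, 67.05, 77.96, 87.97 and 90.9 TPM at 14 dpp, 151, 116, 109.6, 98 and 115 TPM at 16 dpp and 192, 182, 165, 154 and 147 TPM at 18 dpp. No mouse of 18 dpp was within the range of 8 to 14 dpp, and the log2 fold change from 8 to 18 dpp was 1.96 ± 0.149 (SE, adjusted p = 6.38e-12). The adult samples, at 182, 167, 189.8 and 175 TPM, overlapped the mice of 18 dpp.

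Mdc1 and Atr had the most similar courses of all member pairs. Over the 28 mice, the root mean square difference between their centred log2(TPM + 1) was 0.145, the smallest of the 45 pairs of members, and Atr was the gene most like Mdc1 among 14895 genes searched, whose median was 0.820. The next closest pairs were Atm with Brca1, at 0.157, and Topbp1 with Rnf8, at 0.169. The pair farthest apart was Mdc1 and Atm, at 0.965. These are descriptions over mice that share age and mixture.

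H2afx, the histone variant itself, rose less than its reader. Its levels were 55.7, 59.3 and 59.4 TPM at 8 dpp, 52.1, 60.7, 57.2, 65.9 and 67.4 TPM at 10 dpp and 89.3, 87.7, 88.8, 79.4 and 83.2 TPM at 12 dpp. They were 91.1, 86.9, 94.1, 108 and 89.3 TPM at 14 dpp, 115, 112, 134, 101 and 109 TPM at 16 dpp and 101, 111, 127, 140.3 and 150.2 TPM at 18 dpp, all above the mice of 8 dpp, with a log2 fold change of 1.09 ± 0.105 (SE, adjusted p = 6.59e-10). The adult samples were back at 57.1, 51.5, 59.95 and 51.9 TPM, close to the range of 8 dpp. H2afx RNA also exists in a form without a poly-A tail, which these libraries do not hold.

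The log2 ratio of Mdc1 to H2afx averaged -0.45 ± 0.312 in the 3 mice of 8 dpp (SD), 0.42 ± 0.396 in the 5 mice of 18 dpp (SD) and 1.68 ± 0.0407 in the adult samples (SD, n = 4). The difference of 0.88 between 18 and 8 dpp had an exact permutation p of 0.0357 (two-sided, adjusted p = 0.0476 over 4 ratios). At 18 dpp the genes went opposite ways between mice: H2afx was highest, and Mdc1 and Atr lowest, in mice 4 and 5, the mice with fewer late pachytene and diplotene transcripts.

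Rnf8, the ubiquitin ligase recruited by MDC1, had ranges that overlapped from age to age. It ran from 38.1 to 49.1 TPM at 8 dpp, 34.4 to 47.2 TPM at 10 dpp, 34.7 to 43.05 TPM at 12 dpp, 38.8 to 51.8 TPM at 14 dpp, 41.5 to 48.1 TPM at 16 dpp and 42.1 to 52.1 TPM at 18 dpp. It was the member with no difference among the ages past the threshold (limma, adjusted p = 0.171, with 9 of 10 members past it beside 77.6% of genes). Its log2 fold change from 8 to 18 dpp was 0.15 ± 0.111 (SE, adjusted p = 0.226), and it was past the threshold after median-of-ratios scaling (0.33, adjusted p = 0.0121, limma). The adult samples, at 20.4, 24.7, 23.7 and 22.3 TPM, lay below all mice.

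Brca1, which acts at unsynapsed axes and recruits ATR there, fell late. Its levels were 22.7, 19.4 and 22.1 TPM at 8 dpp, and it ran from 16.6 to 22.4 TPM at 10 dpp, 17.2 to 22.2 TPM at 12 dpp, 18.5 to 24.9 TPM at 14 dpp and 15.7 to 19.6 TPM at 16 dpp. At 18 dpp the mice were at 14.4, 14.7, 14.8, 14.2 and 14.3 TPM, the narrowest group of the gene and below every mouse of the earlier ages. The log2 fold change from 8 to 18 dpp was -0.53 ± 0.1 (SE, adjusted p = 3.57e-05). In the adult samples Brca1 was at 1.57, 1.54, 2.88 and 1.86 TPM, 7.37-fold below the mean of 18 dpp.

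Topbp1, the activator of ATR, had the highest mean of the 10 genes at 8 dpp and rose by a smaller amount. It was at 69.2, 57.4 and 71.03 TPM at 8 dpp and 84.6, 80.6, 88.4, 88.6 and 91.5 TPM at 18 dpp, and it ran from 64.7 to 67.1 TPM at 10 dpp, 65.4 to 84.1 TPM at 12 dpp, 69.2 to 87.9 TPM at 14 dpp and 73.2 to 93.2 TPM at 16 dpp. The ranges of 8 and 18 dpp did not overlap, and the log2 fold change was 0.40 ± 0.0891 (SE, adjusted p = 3.12e-04). The adult samples were at 44.8, 40.4, 47.8 and 44.2 TPM.

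Hus1b, a paralog of the clamp subunit HUS1, was low at all ages. It was at 5.6, 3.37 and 4.28 TPM at 8 dpp and 6.44, 6.18, 8.03, 5.02 and 7.53 TPM at 18 dpp, ranges that overlapped. In between it ran from 2.54 to 4.99 TPM at 10 dpp, 3.44 to 6.55 TPM at 12 dpp, 3.29 to 7.17 TPM at 14 dpp and 5.22 to 9.71 TPM at 16 dpp, and the adult samples were at 3.7, 4.24, 4.56 and 4.42 TPM. The log2 fold change of 0.50 ± 0.224 (SE, adjusted p = 0.0496) was past the threshold by a narrow margin and in 17 of 40 alternatives, whose adjusted p ranged from 0.0130 to 0.257 (limma). It was lost in 16 of the 28 fits that left out 1 mouse, with the lowest value without mouse 2 of 8 dpp (0.36, adjusted p = 0.228, limma). Part of these fits left out a mouse of 10 to 16 dpp. There the fold change stayed at 0.50, and the adjusted p was 0.0506 to 0.0548 (limma). Its paralog Hus1 fell from 13.5 ± 1.68 TPM (SD, n = 3) to 10.5 ± 1.46 TPM (SD, n = 5), a log2 difference of -0.35 ± 0.122 (SE, adjusted p = 0.0138) that was not past the threshold after median-of-ratios scaling (-0.18, adjusted p = 0.176). The log2 ratio of Hus1b to Hus1 went from -1.44 ± 0.348 (SD, n = 3) to -0.59 ± 0.384 (SD, n = 5), a difference of 0.85 (two-sided exact permutation test, p = 0.0357, adjusted p = 0.0476 over 4 ratios), and it was -0.25 ± 0.118 in the adult samples (SD, n = 4).

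RAD9 is the other clamp subunit with paralogs, and one rose while the other fell. Rad9b rose from 28.3 ± 1.17 TPM (SD, n = 3) to 53.6 ± 2.07 TPM (SD, n = 5), a log2 difference of 0.90 ± 0.11 (SE, adjusted p = 4.78e-08), and Rad9a fell from 16.6 ± 2.43 to 9.93 ± 1.12 TPM, with -0.68 ± 0.111 (SE, adjusted p = 5.34e-06). Both kept their direction and call from 8 to 18 dpp under median-of-ratios and quantile scaling. Rad1, the clamp subunit shared by both paralogs, and Rad17, its loader, named here after their values were seen, rose by log2 fold changes of 0.70 (adjusted p = 1.31e-06, limma) and 0.37 (adjusted p = 1.22e-04, limma).

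Chek1 and Chek2, the kinases downstream of ATR and ATM, did not pass the threshold between 8 and 18 dpp, and both were spread widely at 18 dpp. Chek1 was at 18.7, 18.1 and 18.9 TPM at 8 dpp, and it ran from 15.3 to 19.9 TPM at 10 dpp, 20.6 to 24.1 TPM at 12 dpp, 19.7 to 27.4 TPM at 14 dpp and 17.6 to 20.7 TPM at 16 dpp. At 18 dpp it was at 11.4, 13.3, 15.3, 20.4 and 21.4 TPM, with mice 1 to 3 below and mice 4 and 5 above all mice of 8 dpp. The log2 fold change was -0.21 ± 0.137 (SE, adjusted p = 0.185), with -0.31 (adjusted p = 0.0360, limma) without mouse 5 of 18 dpp, -0.45 (adjusted p = 0.00162, limma) with mice 1 to 3 of each age alone and -0.32 (adjusted p = 0.0386, limma) after quantile scaling.

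Chek2 was at 6.72, 9.05 and 6.94 TPM at 8 dpp, 8.23, 8.05, 7.05, 9.8 and 11.01 TPM at 14 dpp and 6.41, 5.07, 4.52, 7.53 and 7.18 TPM at 18 dpp. It ran from 7.3 to 7.61 TPM at 10 dpp, 6.32 to 7.82 TPM at 12 dpp and 6.25 to 8.23 TPM at 16 dpp. Mice 4 and 5 of 18 dpp were again above mice 1 to 3 of that age, and the log2 fold change from 8 to 18 dpp was -0.27 ± 0.14 (SE, adjusted p = 0.0865). It became -0.34 (adjusted p = 0.0347, limma) without mouse 4 of 18 dpp, -0.33 (adjusted p = 0.0465, limma) without mouse 5, -0.44 (adjusted p = 0.00876, limma) with mice 1 to 3 of each age alone and -0.51 (adjusted p = 0.00121, limma) after quantile scaling. The log2 ratio of Chek1 to Chek2 averaged 1.2 ± 0.238 in the 3 mice of 8 dpp (SD) and 1.27 ± 0.315 in the 5 mice of 18 dpp (SD), a difference of 0.07 (two-sided exact permutation test, p = 0.786). In the adult samples Chek1 was at 2.89, 3.1, 4.63 and 3.94 TPM and Chek2 at 1.13, 0.51, 1 and 0.5 TPM, 4.50-fold and 7.82-fold below the means of 18 dpp.

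**Figure D1:**
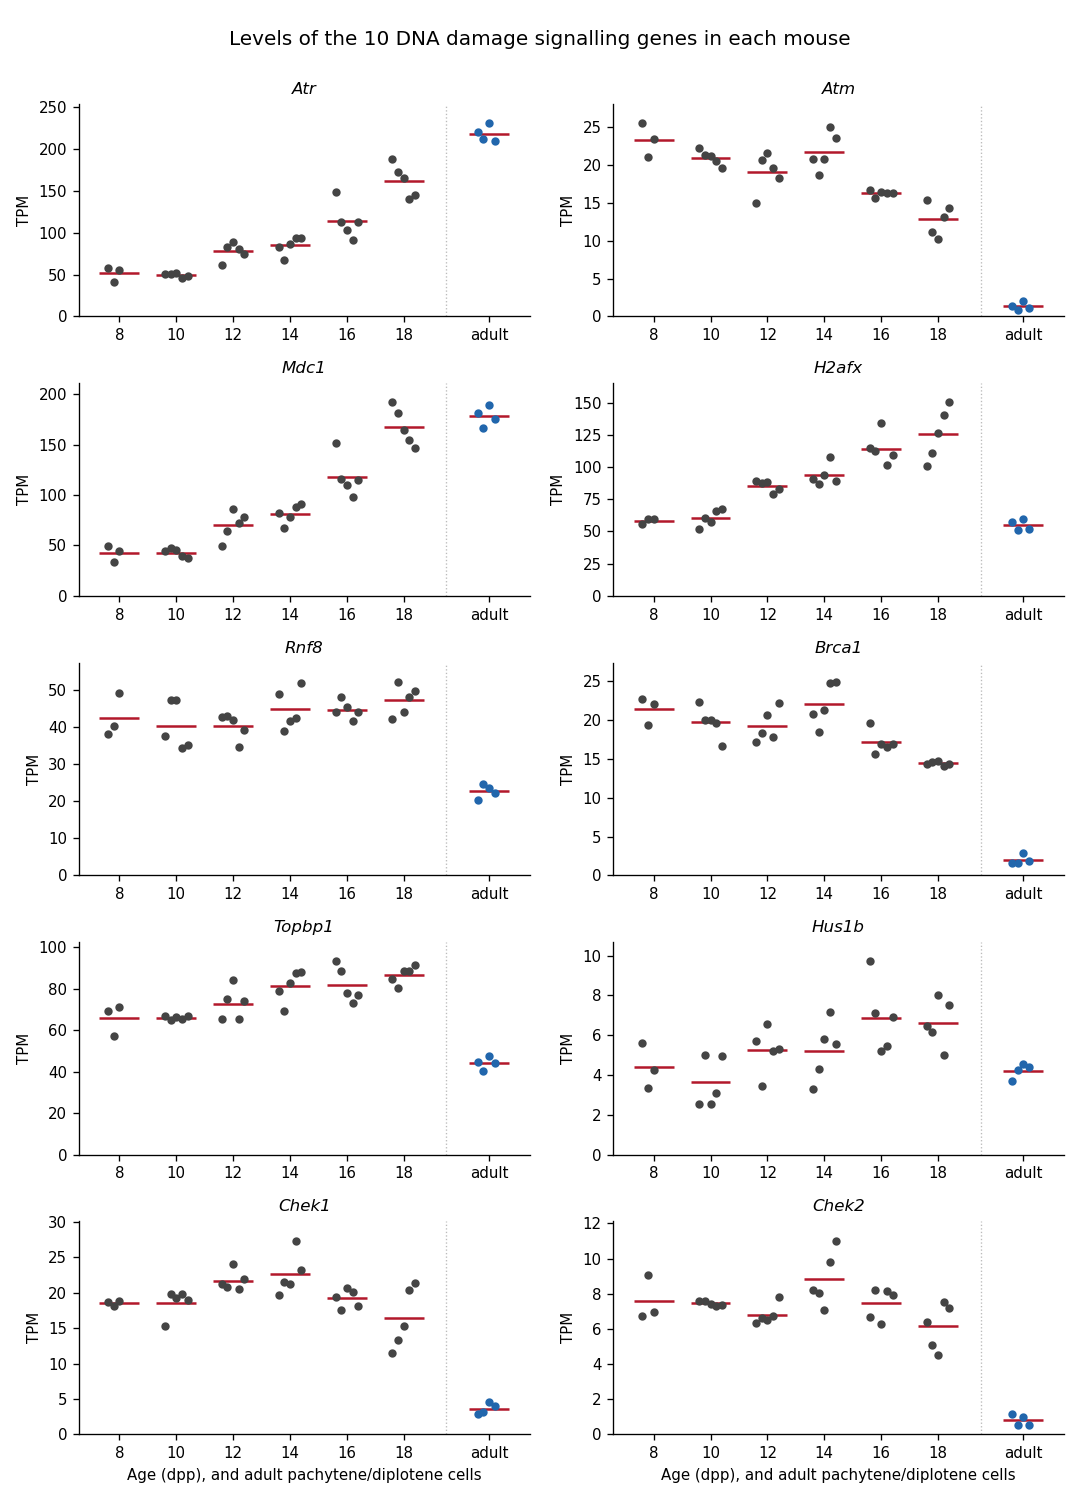
Level in TPM (vertical axis, from 0) of each of the 10 genes by age in dpp, with the adult pachytene/diplotene samples at the right in blue. Points are single mice in order of their numbers or, for adults, pooled samples, and red lines are means. Atr and Mdc1 reach 140.2 to 192 TPM at 18 dpp and hold that level or more in the adult samples, whereas Atm, Brca1, Chek1 and Chek2 are at or below 4.63 TPM there.

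From 8 to 18 dpp, 7 of the 10 genes were past the threshold, 5 higher and 2 lower, where 68.2% of all genes tested were, 31.8% higher and 36.3% lower. The share of members is near that background. The split depended on the scale, with 6 members higher and 2 lower after median-of-ratios scaling and 4 higher and 4 lower after quantile scaling. Of all genes past the threshold 46.7% were higher, 55.9% after median-of-ratios and 37.7% after quantile scaling. The median log2 fold change of the 10 genes was 0.27 beside -0.09 over all genes tested, which became 0.05 after median-of-ratios and -0.26 after quantile scaling. Ranges of the ages did not overlap for 4 members that were higher at 18 dpp (Mdc1, Atr, H2afx and Topbp1) and 2 that were lower (Atm and Brca1), beside 29.0% and 32.0% of genes. Mdc1, Atr, H2afx and Topbp1 stayed higher and Atm and Brca1 lower, past the threshold, under all 40 alternatives.

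The steps of the members fell between the same ages at which many of all genes passed the threshold. From 8 to 10 dpp no member passed the threshold (0 of 10 with limma, 0 at an unadjusted p under 0.05, and 1.2% of genes past the threshold, 0.977% higher and 0.226% lower). From 10 to 12 dpp Mdc1, Atr and H2afx rose (3 of 10, and none fell, beside 12.0% of genes higher, 9.39% lower and 21.4% in either direction), with log2 fold changes of 0.68 ± 0.129 (SE, adjusted p = 3.13e-04), 0.63 ± 0.118 (SE, adjusted p = 2.86e-04) and 0.50 ± 0.0906 (SE, adjusted p = 2.17e-04). Of all genes past the threshold 56.2% were higher, 48.6% after median-of-ratios and 52.1% after quantile scaling, with 3 members higher and none lower under both. The mice of 12 dpp of these 3 genes all lay above those of 10 dpp, as did those of Chek1 (4 of 10 members, beside 10.0% of genes, and no member lay wholly below, beside 7.64%). The log2 fold change of Chek1 was 0.22 ± 0.118 (SE, adjusted p = 0.216). With mice 1 to 3 of each age alone, Mdc1 was not past the threshold (0.50, adjusted p = 0.0530, limma). The sum of 6 early prophase markers went from 268 to 319.9 TPM at 10 dpp to 547 to 755 TPM at 12 dpp, and its part in these rises was not tested.

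From 12 to 14 dpp no member passed the threshold (0 of 10 with limma, 3 at an unadjusted p under 0.05, Topbp1, Brca1 and Chek2, all higher at 14 dpp), where 0.172% of genes did, 0.157% higher and 0.0147% lower. Of the genes past it 91.4% were higher, 81.2% after median-of-ratios scaling. From 14 to 16 dpp 5 of 10 passed (24.0% of genes, 12.7% higher and 11.3% lower), with Mdc1 (0.52, adjusted p = 0.00376), Atr (0.41, 0.0116) and H2afx (0.28, 0.0256) higher and Atm (-0.39, 0.00425) and Brca1 (-0.34, 0.00487) lower on the log2 scale in limma. Without mouse 1 of 16 dpp Atr (adjusted p = 0.0562, limma) and H2afx no longer passed, leaving 3 members, and with mice 1 to 3 of each age alone Atm and Brca1 did not, also leaving 3. H2afx was lost without any 1 of 5 mice, numbers 1, 2 and 7 of 14 dpp and 1 and 3 of 16 dpp.

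From 16 to 18 dpp 4 of 10 passed (54.0% of genes, 23.4% higher and 30.6% lower), Mdc1 (0.51, adjusted p = 0.00156) and Atr (0.52, 6.48e-04) higher and Atm (-0.33, 0.00611) and Brca1 (-0.23, 0.0288) lower in limma. Brca1 was lost without mouse 1 of 16 dpp, and Chek1 and Chek2 became lower past the threshold without mouse 4 or mouse 5 of 18 dpp. The split depended on the scale. Of all genes past the threshold from 16 to 18 dpp 43.4% were higher, and 63.0% after median-of-ratios scaling. Under that scaling 5 members were higher (Mdc1, Atr, H2afx, Topbp1 and Rnf8) and none lower, with Atm at -0.17 (adjusted p = 0.0962) and Brca1 at -0.07 (adjusted p = 0.527). After quantile scaling 37.8% of genes past the threshold were higher. There 2 members were higher (Mdc1 and Atr) and 3 lower, Atm, Brca1 and Chek2 (-0.31, adjusted p = 0.0207, limma). From 14 to 16 dpp the share higher was 53%, and 66.3% and 41.6% after median-of-ratios and quantile scaling, with the same 3 members higher and 2 lower under both.

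**Figure D2:**
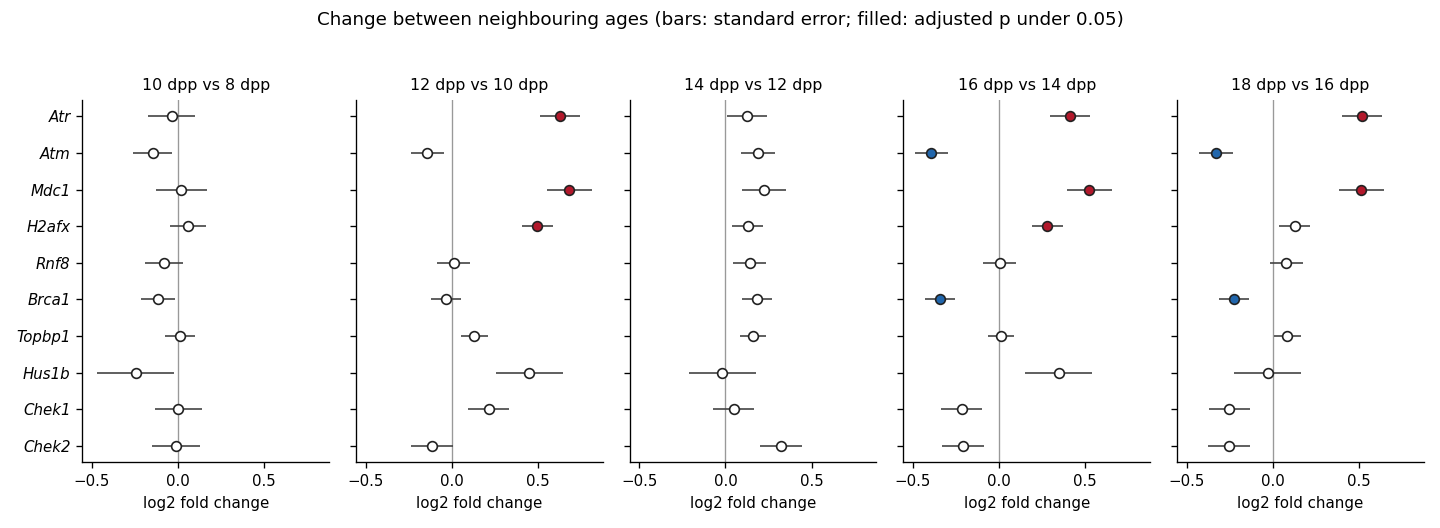
Log2 fold change (horizontal axis) of each of the 10 genes between neighbouring ages, with standard errors as bars, from limma. Filled points are past an adjusted p of 0.05, red higher and blue lower at the later age, and open points are not. The filled points lie in the steps from 10 to 12, 14 to 16 and 16 to 18 dpp.

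The order of the levels changed with age, but the means of Topbp1, H2afx, Atr, Mdc1 and Rnf8 stayed above those of the other members. At 8 dpp the means ran from Topbp1, H2afx, Atr, Mdc1 and Rnf8, whose neighbours in this order overlapped, to Atm, Brca1, Chek1, Chek2 and Hus1b. By 18 dpp Mdc1 and Atr led, at 168 ± 18.9 and 162 ± 19.8 TPM (SD, n = 5) and not separable. H2afx followed at 126 ± 20.4, Topbp1 at 86.7 ± 4.23 and Rnf8 at 47.2 ± 4.09 TPM (SD, n = 5). The highest H2afx value, 150.2 TPM, lay above the lowest of Mdc1 and of Atr, so H2afx overlapped both. The kinases Chek1, Atm and the mediator Brca1 overlapped their neighbours in the order between 10.3 and 21.4 TPM, and Hus1b and Chek2 were lowest and overlapped. In the adult samples Atr and Mdc1 were first and second without overlap, Hus1b overlapped Chek1, and Brca1, Atm and Chek2 overlapped in turn at the bottom.

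**Figure D3:**
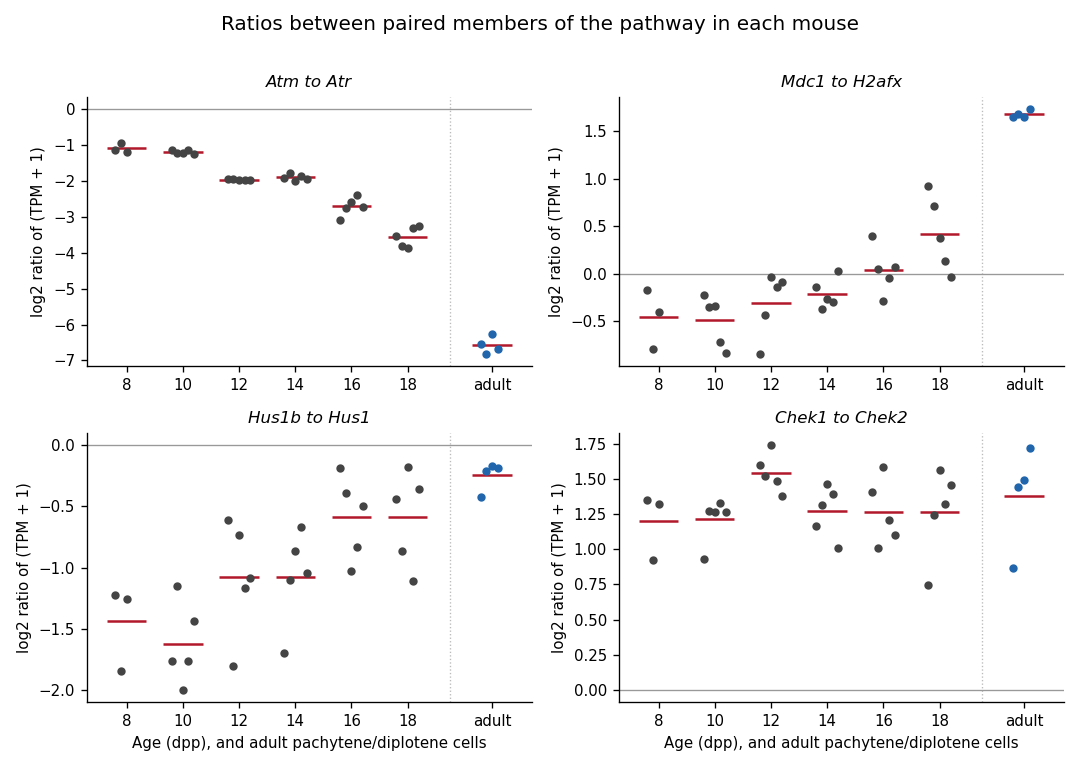
Log2 ratio of the TPM of paired genes, with 1 TPM added to each (vertical axis), by age in dpp and in adult pachytene/diplotene samples (blue). Points are mice or pooled samples and red lines are means. Atm to Atr goes from a mean of -1.09 at 8 dpp to -6.58 in the adult samples, and the means of Chek1 to Chek2 lie between 1.2 and 1.54, with single samples from 0.747 to 1.74.

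In the adult samples 1 member, Atr, lay wholly above the mice of 18 dpp, where 22.3% of genes did, and 8 lay wholly below, where 53.4% of genes did, while Mdc1 overlapped. The tables were normalized separately. Genes were compared if they reached a TPM of 3 in a juvenile mouse. Those high only in the adult samples are therefore missing from these shares and from the median. Over the 20366 genes compared the median difference of adult samples from 18 dpp was -0.66 on the log2 scale. Against that, Atr was at 0.44, higher than 77.2% of genes, and Mdc1 at 0.09, higher than 70.01%. Atm was at -2.58, Brca1 at -2.41, Chek2 at -1.999 and Chek1 at -1.88, with 11.9% of genes lower than Atm and 20.9% lower than Chek1. H2afx was at -1.16, Rnf8 at -1.02 and Topbp1 at -0.95, also below the median of all genes, and Hus1b at -0.54 was above it. Sertoli and spermatogonial markers differed in the same direction as these low genes, and their part was not tested.

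The other genes of the pathway were read from 6 lists of 56 genes, of which 55 were tested and 1, Trp63, was below 3 TPM in all mice. At 18 against 8 dpp 34 of the 55 passed the threshold (61.8%, beside 68.2% of all genes), 16 higher and 18 lower. Among 14 genes of ATR activation and the 9-1-1 clamp 4 were higher, 6 lower and 4 not past the threshold, with a median log2 fold change of -0.18 beside -0.09 over all genes. The largest changes were in Rfc2 (1.06), a subunit of the clamp loaders, in Rad9b, and in Rfc5 (-0.88), another loader subunit. Among 4 genes of ATM activation only Kat5, the acetyltransferase of ATM, passed, with 0.74 ± 0.118 (SE, adjusted p = 3.64e-06), and Mre11a, Rad50 and Nbn, the subunits of the complex that senses breaks, were at 0.03, -0.13 and 0.05, not past it.

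Of 14 genes of gammaH2AX mediators, ubiquitin and BRCA1 complexes 3 were higher, 5 lower and 6 not past the threshold (median -0.05). Brcc3, a deubiquitinase of the BRCA1-A complex, was at -0.76 (adjusted p = 1.66e-05), Paxip1, which encodes PTIP, at -0.59 (adjusted p = 7.67e-08) and Herc2, a ligase that acts with RNF8, at -0.34 (adjusted p = 0.00581) in limma. Herc2 was not past the threshold after median-of-ratios scaling (-0.16, adjusted p = 0.198). The effectors had 3 higher, 3 lower and 3 not past the threshold of 9 tested (median 0.14). Cdkn1a, the cell cycle inhibitor p21, rose from 5.45 ± 1.95 to 15.9 ± 2.91 TPM (SD, n = 3 and 5) with a log2 fold change of 1.42 ± 0.166 (SE, adjusted p = 2.35e-08) and was at 2.64 ± 0.93 TPM (SD, n = 4) in the adult samples. Mdm2, the ligase of p53, rose by 0.82 (adjusted p = 7.74e-09), and Cdc25b, a phosphatase that CHK1 inhibits, was at -0.87 (adjusted p = 4.49e-06) in limma.

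Among 10 genes of the unsynapsed axis and XY chromatin 4 rose and 2 fell (median 0.06). Hormad1, the axis protein that recruits ATR to unsynapsed chromosomes, rose from 58.7 ± 14.4 to 291 ± 22.5 TPM (SD, n = 3 and 5), a log2 fold change of 2.32 ± 0.178 (SE, adjusted p = 8.57e-12). Sycp3 and Sycp1, of the synaptonemal complex, rose by 1.90 (adjusted p = 6.68e-13) and 1.57 (adjusted p = 3.73e-10) in limma. All 3 are also among the early prophase markers. From 10 to 12 dpp 4 of these 10 genes rose and none fell, and over all 6 lists 9 of the 55 genes rose and 5 fell (25.5%, beside 21.4% of all genes, 12.0% higher and 9.39% lower). All 10 lay, in the adult samples, wholly below the mice of 18 dpp, as did 12 of the 14 genes of ATR activation, 9 of the 14 mediators, 7 of the 10 effectors and 2 of the 4 other kinases, beside 53.4% of genes. Of the 4 genes of ATM activation Mre11a, Nbn and Kat5 lay wholly above and Rad50 wholly below, and 3 effectors, 1 mediator and 1 gene of ATR activation lay wholly above, beside 22.3% of genes. Among the other kinases of the family of ATM and ATR, Prkdc (-0.66, adjusted p = 4.88e-05), the kinase of end joining, and Trrap, a scaffold without kinase activity (-0.59, adjusted p = 6.23e-06) fell and Mtor (0.40, adjusted p = 1.65e-04) rose in limma, while Smg1 was not past the threshold. The list genes named as past the threshold kept their direction from 8 to 18 dpp under both other scalings.

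**Figure D4:**
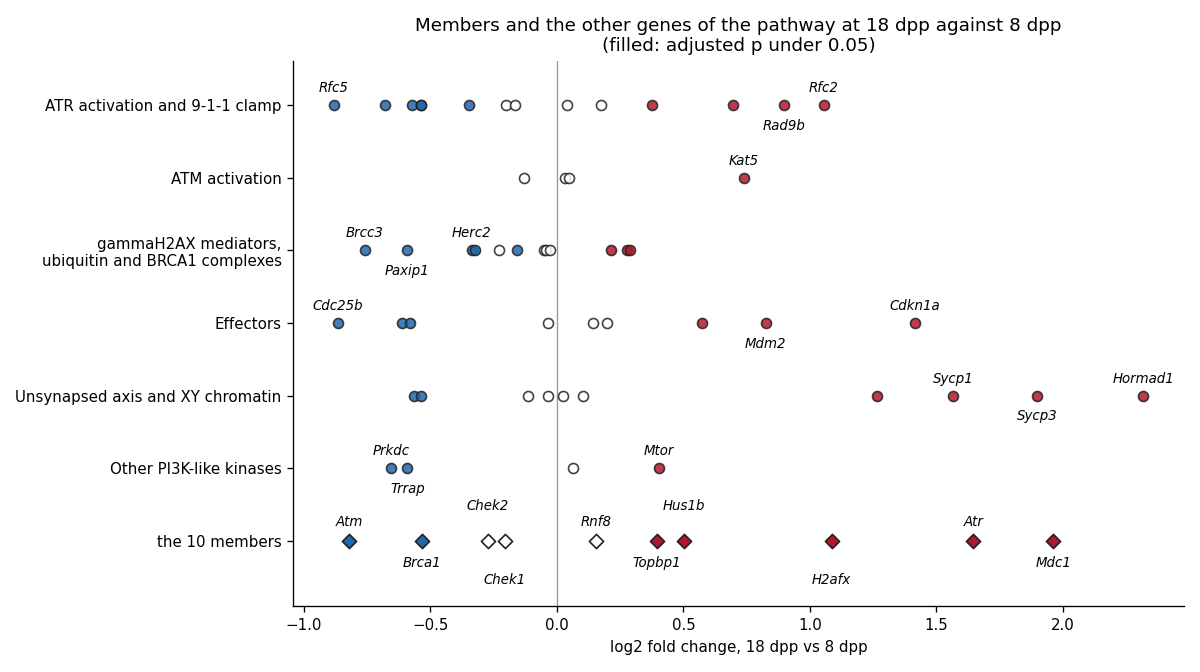
Log2 fold change from 8 to 18 dpp (horizontal axis) of the 10 members (diamonds) and of 55 other genes of the pathway in 6 lists (circles), from limma. Filled symbols are past an adjusted p of 0.05, red higher and blue lower at 18 dpp, and the list genes named are the up to 3 of largest change. Mdc1 (1.96) lies to the right of every list gene but Hormad1, and Atr (1.65) to the right of every one but Hormad1 and Sycp3.

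The neighbours across the shared start sites were also read. Npat, 307 bases from the start of Atm, had a log2 fold change from 8 to 18 dpp of -0.45 (standard error 0.0947, adjusted p = 1.43e-04, limma), and Nbr1, 194 bases from Brca1, of -0.34 (standard error 0.0561, adjusted p = 5.28e-06, limma). Hscb, 202 bases from Chek2, was at -0.47 (adjusted p = 0.00215, limma). The neighbour of Topbp1, 1300017J02Rik at 133 bases, went from 0.967 to 13.3 TPM (2.83, adjusted p = 1.71e-11, limma). The 4 neighbours were named for their position.

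Most of the genes were measured through 1 transcript. H2afx, Atr, Topbp1, Chek2 and Hus1b each had 1 transcript in the table, and Atm-201 and Brca1-201 held over 96% of their genes' TPM. For Mdc1, the full transcript of 16 exons, Mdc1-201, held 86.2% ± 7.10 (SD, n = 8 mice) at 8 and 10 dpp and 81.2% ± 2.10 (SD, n = 10) at 16 and 18 dpp, and Mdc1-202, of 3 exons, held the rest. For Chek1 the largest share, 44.96% ± 9.09 (SD, n = 8) and 41.3% ± 7.70 (SD, n = 10), was Chek1-207, annotated as a processed transcript and not as protein-coding. Rnf8-201 held 83.7% ± 8.26 (SD, n = 8) and 90.4% ± 6.00 (SD, n = 10). None of 15 transcripts of Mdc1, Rnf8 and Chek1 changed its share past the threshold of an adjusted p under 0.05 and 20 points (limma, 2 at an unadjusted p under 0.05), where 1.28% of transcripts did.

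The gene most like each member over the 28 mice, by the smallest root mean square difference of centred log2(TPM + 1), was Atr for Mdc1, Phtf1 for Atr (0.1003), Aasdhppt for H2afx (0.150) and Vps13c for Atm (0.105). For the others it was Utp20 for Brca1 (0.105), Zmynd19 for Topbp1 (0.0855), Ddx24 for Rnf8 (0.117), Tktl1 for Chek1 (0.120), Tssc4 for Chek2 (0.134) and Acss2 for Hus1b (0.238). Phtf1, for example, went from 29.7 to 97.9 TPM between 8 and 18 dpp, and Vps13c from 18.9 to 10.5 TPM.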

How the data were processed

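Germ cells of 28 juvenile mice and 4 pooled adult samples were measured by sequencing of poly-A RNA. Per the labels and the study's methods, the authors aligned reads with Bowtie 1.0.0 and estimated expression with RSEM 1.2.8. The transcript and adult tables deposited by the authors hold TPM. The deposited gene table was entered as a score, because its values equal exp(log2(TPM + 1)) - 1. They were converted back to TPM and then lay within 0.2 TPM of the summed transcripts for 20288 of 20368 genes. TPM keeps no depth, so the depth of each sample is unknown and no counting interval is given.

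Differences between ages were tested with limma 3.58.1 in R 4.3.3 on log2(TPM + 1), with a trend in the prior variance, 1 mean for each of 6 ages and Benjamini-Hochberg adjustment over 20368 genes, those reaching a TPM of 3 in any mouse. The threshold was an adjusted p of 0.05. Ratios were tested by two-sided exact permutation. The adult table was normalized separately and was not tested. Python 3.11.15 with numpy 2.4.6, pandas 2.3.3 and scipy 1.17.1 was used for the rest. The fits were tested on simulated data.

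The members and gene lists were chosen with earlier results of these data known. Besides the members, the text names up to 3 genes past the threshold with the largest change from 8 to 18 dpp in each list, the gene most like each member, Hus1, Rad9a and Rad9b, markers beside a result, and transcripts with at least 10% of a member's TPM. Neighbours across start sites were added by position after the values were seen. Alternatives were another pseudocount, filter, scaling and prior, a replicate block, mouse set, mice 1 to 3 alone and each mouse left out. Those for the pathway lists were chosen after seeing the data.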

Additional observations from a re-analysis of the deposited data

Results flagged for a closer look

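In 2 of 60 groups of a member's values at 1 age or in the adult samples, 1 sample lay far from the others by Dixon's ratio, where chance gives about 1 in 20, or 3. Chek1 was at 15.35 TPM in mouse 1 of 10 dpp, below the other 4 mice of that age at 18.97 to 19.86 TPM. Chek2 was at 7.82 TPM in mouse 5 of 12 dpp, above the other 4 at 6.32 to 6.72 TPM.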

How the results depend on the processing

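The mice of different ages share replicate numbers but were not paired: of 65 same-numbered pairs 3 had deviations correlated over 0.1 (range -0.248 to 0.253), and 6 of 28 mice correlated best with their own number. For this and for the replicate block, mice 6 and 7 of 14 dpp were counted as numbers 4 and 5. With the number as a replicate block, 8 members were past the threshold from 8 to 18 dpp, against 7 without it, and 6 against 4 from 16 to 18 dpp. Under the block Chek1 (-0.28, adjusted p = 0.0488, limma) and Chek2 (-0.36, adjusted p = 0.0124, limma) were past it from 8 to 18 dpp and Hus1b was not (0.47, adjusted p = 0.0860, limma).

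From 14 to 16 dpp 5 members passed, 3 with mice 1 to 3 of each age alone and 3 to 5 with each mouse left out. Leaving out a mouse gave 3 to 4 members from 10 to 12 dpp, 3 to 6 from 16 to 18 dpp and 6 to 8 from 8 to 18 dpp. The log2 fold change of Rnf8 from 10 to 12 dpp (0.01) was -0.00798 after median-of-ratios scaling, -0.00102 after quantile scaling, -0.0363 with mice 1 to 3 alone and -0.0401 to 0.0717 with a mouse left out. That of Brca1 (-0.03) was -0.0901 to 0.0124 with a mouse left out. With a mouse left out the log2 ratios from 8 to 18 dpp were -2.55 to -2.39 for Atm to Atr, 0.71 to 1.02 for Mdc1 to H2afx, 0.65 to 0.98 for Hus1b to Hus1 and -0.0706 to 0.20 for Chek1 to Chek2, where the fewer arrangements allow no adjusted p under 0.05 by exact permutation. The Chek1 to Chek2 ratio turned below 0 without mouse 2 of 8 dpp (-0.0706) and without mouse 3 of 18 dpp (-0.00793). The cause was not tested. The unknown depth leaves the counting error of low values unknown. The means of Chek2 and Hus1b were under 10 TPM at every age and in the adult samples. Those of Atm, Brca1 and Chek1 were also under 10 TPM in the adult samples.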
